A study of Homo sapiens with 8 samples.

Results

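The 10 genes described here are the cyclins, cyclin-dependent kinases (CDKs) and CDK inhibitors that act in the G1 phase of the cell cycle: the D-type cyclins CCND1, CCND2 and CCND3, the E-type cyclins CCNE1 and CCNE2, the kinases CDK4 and CDK6, and the inhibitors CDKN1A (p21), CDKN1B (p27) and CDKN2B (p15). Every probe that the array annotation names for one of these genes was taken, which gave 19 of the 41000 probes on the array and 10 of its 30982 gene names. The cells were CAL-27, an established human line from a squamous carcinoma of the head and neck. They were kept without serum for 24 h, treated for 24 h, and their total RNA was labelled with Cy3 and hybridised to 8 single-colour arrays of Agilent probes. The groups were Go (2 arrays), an inhibitor that the labels give by that name alone and without a dose; enzastaurin (3 arrays), an inhibitor developed against protein kinase C beta, at 10 µM; and control (3 arrays). All 3 groups shared the cell line and the serum withdrawal. Nothing in the labels says that the arrays of a group came from separate cultures, so the p-values measure the spread between arrays, and the doses of the compounds could not be matched.

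D-type cyclins bind CDK4 and CDK6 in early G1, and E-type cyclins bind CDK2 later in G1. Both kinds of complex phosphorylate the retinoblastoma protein, which releases E2F transcription factors and opens the way into S phase. CDKN2B binds CDK4 and CDK6 and keeps them from their cyclins, while CDKN1A and CDKN1B bind assembled complexes and block those that hold CDK2. In squamous carcinoma of the head and neck, gain of CCND1 is a frequent lesion, and serum withdrawal is a common way to hold cultured cells in G1.

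The windows of 250 bases upstream of the start site are shown for 3 members whose signal differed between groups in distinct ways: CCNE1, CDKN1A and CDKN1B. They are RefSeq sequences on GRCh38.p14, written 5′ to 3′ on the gene's own strand, and lie at chr19:29811741-29811990 (plus strand) for CCNE1, chr6:36678464-36678713 (plus strand) for CDKN1A and chr12:12717118-12717367 (plus strand) for CDKN1B. Capitals mark the GC box GGGCGG and the CCAAT box CCAAT on either strand.
CCNE1: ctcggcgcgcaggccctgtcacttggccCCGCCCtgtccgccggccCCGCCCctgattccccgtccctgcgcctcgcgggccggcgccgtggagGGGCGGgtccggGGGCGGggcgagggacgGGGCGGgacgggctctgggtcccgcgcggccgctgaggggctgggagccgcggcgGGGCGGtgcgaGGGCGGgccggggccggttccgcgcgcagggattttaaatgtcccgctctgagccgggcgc
CDKN1A: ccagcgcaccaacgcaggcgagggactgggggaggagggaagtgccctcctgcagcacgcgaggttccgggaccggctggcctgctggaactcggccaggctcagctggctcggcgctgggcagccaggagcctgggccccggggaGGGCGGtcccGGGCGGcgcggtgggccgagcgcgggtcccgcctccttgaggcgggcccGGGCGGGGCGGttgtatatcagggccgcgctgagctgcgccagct
CDKN1B: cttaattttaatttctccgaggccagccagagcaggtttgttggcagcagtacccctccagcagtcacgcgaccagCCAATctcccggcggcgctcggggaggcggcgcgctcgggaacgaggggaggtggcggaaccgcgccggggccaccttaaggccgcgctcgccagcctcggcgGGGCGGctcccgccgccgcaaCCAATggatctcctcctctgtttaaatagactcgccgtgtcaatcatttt
The CCNE1 window held 7 GC boxes. That of CDKN1A held 4, of which the pair nearest the start overlap, and that of CDKN1B held 1 GC box and 2 CCAAT boxes. Among all 35116 windows of this length, 42.6% held a GC box and 32.0% a CCAAT box, so both motifs are common. The windows of the other members with an entry held 7 GC boxes and 2 CCAAT boxes (CCND3, over its 3 starts), 3 GC boxes and 1 cyclic AMP response element core TGACGT (CDK6, over its 2 starts), 3 GC boxes (CDK4) and 2 GC boxes (CDKN2B). That core occurred in 7.1% of all windows. Searches of these windows, on both strands, for the E2F motif (TTTGGCGC, TTTCGCGC or TTTCCCGC, in 2.32% of all windows), the AP-1 motif TGANTCA (6.57%), the FOXO motif GTAAACA (2.98%) and the TATA box TATAAA (10.7%) gave no match in these letters.

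Signals below are background-subtracted intensities after quantile normalisation, and differences are on the log2(signal + 50) scale, which understates the change of dim probes. Of the 41000 probes, 24771 stood above background on at least 2 arrays and were tested. As a check of the labelled cell type, all 9 keratinocyte markers on the array, among them KRT5, KRT14 and TP63, stood above background on every array, with a summed signal of 62807 to 67207 on Go, 70122 to 72837 on enzastaurin and 65037 to 81851 on control arrays. Of 5 fibroblast markers 1 to 4 stood above background on an array, of 6 leukocyte markers 3 to 4 and of 5 endothelial markers 1 to 2. The first principal component of the tested probes held 81.7% of the variance and placed the Go arrays at -4.4 and -42.5, the enzastaurin arrays between -52.8 and -48.1, and the control arrays at 90.3, 72.6 and 35.9. Spot positions in the scanner tables fall into 2 sets, taken here as 2 slides: one with the 3 control arrays and Go 1, the other with the 3 enzastaurin arrays and Go 2. Enzastaurin and control arrays shared no slide, so that slide and enzastaurin treatment can be told apart only through the 2 Go arrays.

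Across the members, 18 of the 19 probes were tested, and the 19th, CDKN2B A_23_P216812, was not above background on any array. Between Go and enzastaurin, 7 member probes differed (5 higher, 2 lower in Go), and 3.81% of all probes tested did so (2.08% higher and 1.73% lower, 944 probes in all, of which 54.7% were higher in Go). The 2 lower were CDKN1A probes, of which A_24_P89457 was above background on 2 enzastaurin arrays alone and was tested only through them. Between Go and control, 7 member probes differed (3 higher, 4 lower), with 28.9% called among all probes (12.9% higher, 15.9% lower). The 4 lower include CDKN1A A_24_P89457, above background on no Go or control array, and CCND3 A_23_P214464, above background on 1 of 2 Go arrays. Between enzastaurin and control, 11 differed (4 higher, 7 lower), with 51.9% called among all probes (21.7% higher, 30.2% lower), so that a call in this comparison was the usual outcome. The members' median differences were 0.14, -0.12 and -0.13, in that order, beside 0.01, -0.07 and -0.08 over all probes. Array groups did not overlap for 15, 15 and 13 of the 18 member probes, and for 45.5%, 56.3% and 67.1% of all probes. The last 2 comparisons share the control arrays, and the first and the last share the enzastaurin arrays. Some called probes belong to the same gene, and those between Go and enzastaurin are all of CCND1, CCND2 or CDKN1A. With 1 probe per gene, 2 of the 10 members were called higher and 1 lower in Go than enzastaurin, beside 3.99% of all genes called. Against control, 3 were called higher and 1 lower with Go (29.4% of all genes called), and 4 higher and 3 lower with enzastaurin (53.5%).

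**Figure D1:**
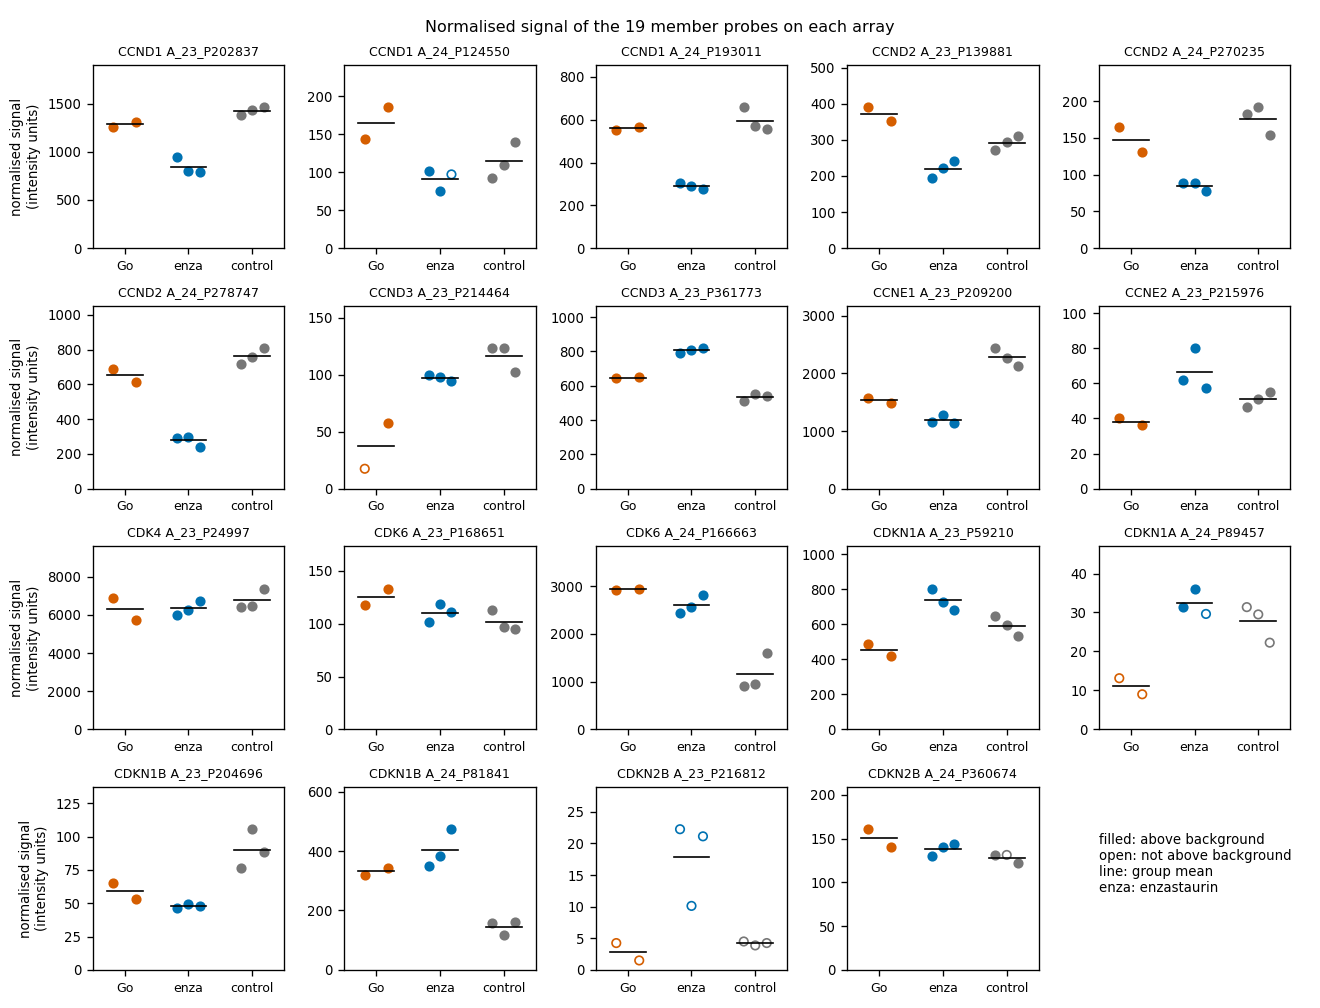
Normalised signal (intensity units, linear axis from 0) of the 19 member probes on each array, with Go, enzastaurin (enza) and control from left to right; filled points are arrays above background, open points are arrays not above it, and lines are group means. The enzastaurin points of CCND2 A_24_P278747 (240.0 to 299) lie below all others, and those of CDK6 A_24_P166663 (2445 to 2809.8) lie with the Go points above the control points.

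The count of called probes depended on single arrays and on scaling. Between Go and enzastaurin it was 2423 without Go 2, 148, 106 and 158 without enzastaurin 1, 2 and 3, 345 without control 2 and 1542 without control 3. Between Go and control it was 1338 without Go 2, 3921, 3907 and 4311 without enzastaurin 1, 2 and 3, 2959 without control 1 and 958 without control 2. With the slide as a block, 1338 probes were called between Go and control and 721 between enzastaurin and control, in place of 7147 and 12852. Between Go and enzastaurin the block called 1148, of which 516 were among the 944 called without it, and 45.1% of the 1148 were higher in Go. Without any scaling between arrays, the median of all probes moved to -0.14, 0.11 and 0.25 in the 3 comparisons. The share of calls that were higher then became 27.6% (Go against enzastaurin), 86.7% (Go against control, with 44.9% after quantile normalisation) and 83.8% (enzastaurin against control, with 41.8% after quantile normalisation).

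CCND1 and CCND2 had lower signal with enzastaurin than with Go or in control cells, while Go and control cells did not differ beyond the test on any of their 6 probes. CCND1 probes A_23_P202837 and A_24_P193011 and all 3 CCND2 probes were called in both comparisons that involve enzastaurin, with differences of 0.55 to 1.10 for Go over enzastaurin and of -0.35 to -1.31 for enzastaurin over control. CCND3 went another way, and its 2 probes disagreed.

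CCND1 encodes cyclin D1, the D-type cyclin most often amplified in these tumours. Its probe A_23_P202837 read 1261 and 1312 on the Go arrays, 942, 795 and 792 on the enzastaurin arrays, and 1386, 1436 and 1460.1 on the control arrays. All enzastaurin arrays were below all others, and both Go arrays were just below the control arrays. The difference was 0.59 (SE 0.0979, adjusted p = 0.0216) for Go over enzastaurin, -0.14 (95% interval -0.37 to 0.08, adjusted p = 0.274) for Go over control and -0.73 (SE 0.0875, adjusted p = 0.000736) for enzastaurin over control. A second probe, A_24_P193011, read 552 and 566 on Go, 304, 290.2 and 275 on enzastaurin and 658, 570.5 and 558 on control arrays. It had the same order, with Go inside or just below the control range: 0.84 (SE 0.0955, adjusted p = 0.00625) for Go over enzastaurin, -0.08 (95% interval -0.30 to 0.14) for Go over control and -0.92 (SE 0.0854, adjusted p = 0.000404) for enzastaurin over control. The third probe, A_24_P124550, read 143 and 185 on Go, 101, 75.1 and 97.0 on enzastaurin and 92.4, 110.0 and 139.9 on control arrays, with enzastaurin 3 not above background, and passed in no comparison (adjusted p = 0.0696 for Go over enzastaurin, 0.0821 for Go over control and 0.212 for enzastaurin over control).

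The enzastaurin calls of CCND1 A_24_P193011 held with the slide as a block, at 0.86 (adjusted p = 0.0181) for Go over enzastaurin and -0.96 (adjusted p = 0.0357) for enzastaurin over control. For A_23_P202837, the block kept the first call (0.61, adjusted p = 0.0406) and ended the second (-0.78, adjusted p = 0.0591). Its Go over enzastaurin call also ended without enzastaurin 2 (adjusted p = 0.11), enzastaurin 3 (0.0884) or control 2 (0.0565), with differences of 0.54 to 0.59. Without scaling, the values for A_23_P202837 were 0.39 (adjusted p = 0.306) and -0.22 (adjusted p = 0.289), and those for A_24_P193011 were 0.66 (adjusted p = 0.107) and -0.48 (adjusted p = 0.0291).

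CCND2 encodes cyclin D2. Its probe A_24_P278747 read 689 and 615 on Go, 293, 299 and 240.0 on enzastaurin and 715, 756 and 809 on control arrays. All enzastaurin values were below every other value, with a wide gap. This was the largest member difference between the compounds, 1.10 (SE 0.112, adjusted p = 0.00549, 2.15-fold) for Go over enzastaurin, and the largest fall with enzastaurin, -1.31 (SE 0.0999, adjusted p = 0.000286) against control. Go over control was -0.21 (95% interval -0.46 to 0.05, adjusted p = 0.18). Both calls held with the slide as a block (1.03, adjusted p = 0.0168, and -1.16, adjusted p = 0.0304). The first ended without scaling (0.92, adjusted p = 0.0787) and in none of the other 18 alternatives, and the second held in all 19.

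The remaining pair of CCND2 probes gave smaller differences of the same sign. A_23_P139881 read 389.6 and 352 on Go, 195, 221 and 242 on enzastaurin and 273, 293 and 311 on control arrays, which put Go above and enzastaurin below the control range. A_24_P270235 read 165 and 130.2 on Go, 88.9, 88.2 and 77.9 on enzastaurin and 183, 192 and 154 on control arrays. Go over enzastaurin was 0.65 (adjusted p = 0.0194) and 0.55 (adjusted p = 0.0413) for these probes. Each of these calls ended without enzastaurin 1, 2 or 3 or without control 2 (adjusted p = 0.0517 to 0.146). That of A_24_P270235 also ended with the slide as a block (0.42, adjusted p = 0.0997), which for this comparison is the same fit as leaving out Go 1. Without scaling neither passed (0.46, adjusted p = 0.271, and 0.43, adjusted p = 0.257). Enzastaurin over control was -0.35 (adjusted p = 0.0156) and -0.74 (adjusted p = 0.00112), and neither held with the slide as a block (-0.22, adjusted p = 0.455, and -0.49, adjusted p = 0.144). The first of them ended without enzastaurin 1 (adjusted p = 0.0646) or control 2 (0.0504), and without scaling it turned to 0.07 (adjusted p = 0.771), a value below the 0.25 to which the median of all probes moved. The second stood at -0.42 (adjusted p = 0.0529) without scaling.

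CCND3 encodes cyclin D3. Its probe A_23_P361773 read 644 and 649 on Go, 793, 806 and 820.0 on enzastaurin and 514, 554 and 539 on control arrays. The 3 groups did not overlap, with enzastaurin highest, Go next and control lowest. Enzastaurin over control was 0.55 (SE 0.0695, adjusted p = 0.00087, and 0.54 with adjusted p = 0.0738 with the slide as a block). Go over control was 0.25 (adjusted p = 0.0445), a call that 11 of 19 alternatives ended, among them the slide as a block (adjusted p = 0.144) and leaving out any array but control 3 (adjusted p = 0.0662 to 0.144), and Go over enzastaurin was -0.30 (adjusted p = 0.0773). The other probe, A_23_P214464, read 17.5 and 57.5 on Go, 99.9, 97.6 and 94.1 on enzastaurin and 123, 123 and 102 on control arrays. Go 1 was not above background there. For this probe Go over control was -0.96 (SE 0.176, adjusted p = 0.0121), the opposite sign to A_23_P361773, and the call ended without control 2 (adjusted p = 0.0536). Go over enzastaurin was -0.79 (adjusted p = 0.05003, just above the threshold and so not called), and enzastaurin over control was -0.17 (adjusted p = 0.375).

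CCNE1, an E-type cyclin that activates CDK2, was lower with both compounds than in control cells. Its probe A_23_P209200 read 1567 and 1493 on Go, 1159, 1285 and 1143 on enzastaurin and 2437, 2262 and 2131 on control arrays. The groups did not overlap, and the Go arrays lay between the others. The difference was -0.56 (SE 0.0954, adjusted p = 0.0106) for Go over control and -0.90 (SE 0.0853, adjusted p = 0.000428) for enzastaurin over control, while Go over enzastaurin, 0.34 (95% interval 0.13 to 0.56, adjusted p = 0.0884), did not pass after adjustment. With the slide as a block, enzastaurin over control was -0.83 (adjusted p = 0.049) and Go over control -0.52 (adjusted p = 0.0501), and leaving out Go 2 gave the same value. Both calls ended without scaling (-0.24, adjusted p = 0.459, and -0.38, adjusted p = 0.0931).

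CCNE2, the second E-type cyclin, was dim. Its probe A_23_P215976 read 40.4 and 36.1 on Go, 62.1, 80.1 and 57.6 on enzastaurin and 46.4, 51.2 and 55.2 on control arrays. Enzastaurin arrays were highest and Go arrays lowest, without overlap, but no comparison passed (adjusted p = 0.077 for Go over enzastaurin, 0.178 for Go over control and 0.0957 for enzastaurin over control), and none did in any alternative.

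CDK6 signal was higher with both compounds on one of its probes, and CDK4 signal did not differ detectably. The CDK6 probe A_24_P166663 read 2916 and 2947 on Go, 2445, 2561 and 2809.8 on enzastaurin and 911, 953 and 1593 on control arrays. Both compounds lay far above control, and control 3 was the control array nearest to them. Go over control was 1.35 (SE 0.213, adjusted p = 0.00881, 2.56-fold), the largest rise among the members, and it held in all 19 alternatives. Enzastaurin over control was 1.19 (SE 0.19, adjusted p = 0.00191) and ended with the slide as a block (1.17, adjusted p = 0.132), which left the value nearly where it was. Go over enzastaurin was 0.17 (95% interval -0.32 to 0.66, adjusted p = 0.673).

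The other CDK6 probe, A_23_P168651, read 118 and 133 on Go, 102, 119 and 111 on enzastaurin and 113, 97.4 and 94.9 on control arrays. It passed in no comparison (Go over control 0.21, 95% interval -0.01 to 0.43; enzastaurin over control 0.08, 95% interval -0.12 to 0.28), and these intervals do not reach the differences of A_24_P166663. CDK4, measured by A_23_P24997, read 6867 and 5756 on Go, 6015, 6271 and 6748 on enzastaurin and 6431, 6459 and 7376 on control arrays. These groups overlapped throughout. The differences were -0.01 (95% interval -0.27 to 0.25) for Go over enzastaurin, -0.10 (-0.36 to 0.16) for Go over control and -0.09 (-0.32 to 0.14) for enzastaurin over control. Without scaling, enzastaurin over control was 0.45 (adjusted p = 0.0687) for CDK4, also not called.

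**Figure D2:**
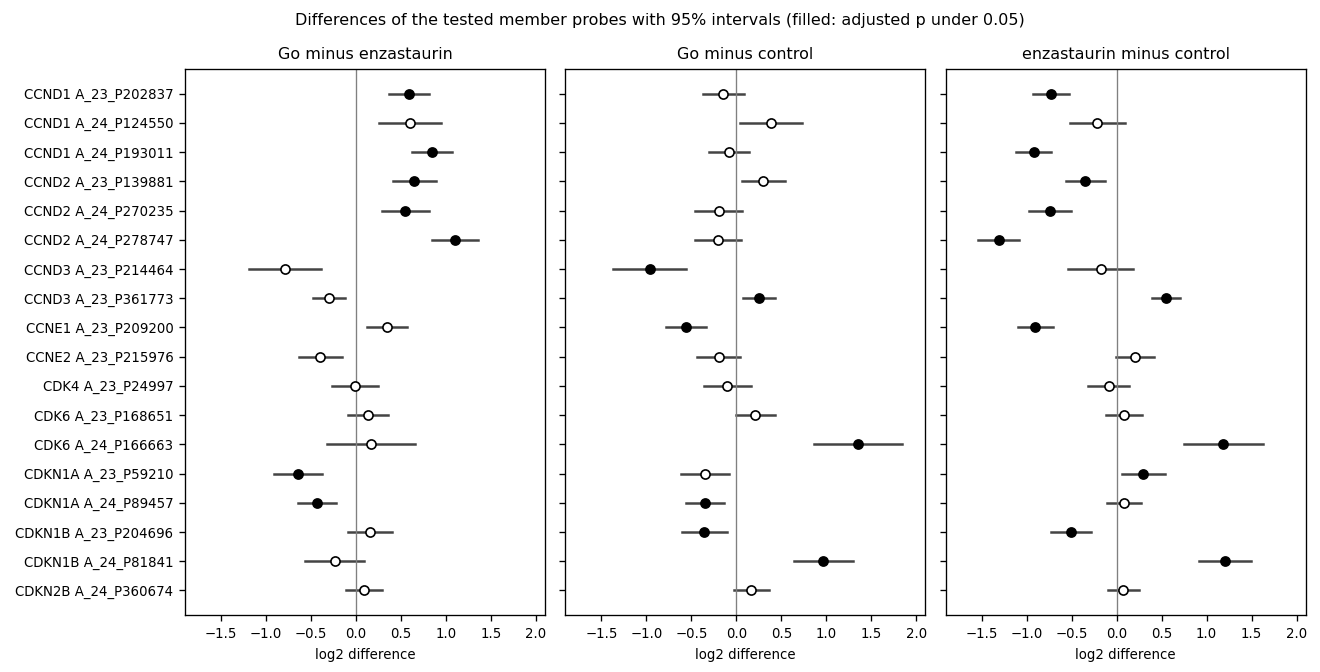
Log2 differences of the 18 tested member probes in the 3 comparisons, with 95% intervals; filled points have an adjusted p under 0.05. Between Go and enzastaurin the 5 called probes to the right of 0 are of CCND1 and CCND2 and the 2 to the left are of CDKN1A. Of these, CDKN1A A_24_P89457 was above background on 2 enzastaurin arrays alone. CDK6 A_24_P166663 and CDKN1B A_24_P81841 are the farthest right in both comparisons with control.

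Among the inhibitors, CDKN1A differed between the compounds. CDKN1A encodes p21, the CDK inhibitor known as a target of p53. Its probe A_23_P59210 read 490.3 and 419 on Go, 804, 726 and 684 on enzastaurin and 647, 595 and 532 on control arrays. After quantile normalisation no groups overlapped: enzastaurin was highest and Go lowest. Before it, the Go signals (536 and 378) overlapped those of control (512, 423 and 520). Without scaling, Go over control was -0.09 (adjusted p = 0.807), so the place of Go below control depended on the scaling. Go over enzastaurin was -0.64 (SE 0.116, adjusted p = 0.0274, and -0.74 with adjusted p = 0.0336 with the slide as a block). Enzastaurin over control was 0.30 (SE 0.104, adjusted p = 0.0414) and ended with the slide as a block (0.50, adjusted p = 0.161), while Go over control was -0.34 (95% interval -0.61 to -0.08, adjusted p = 0.0562) and did not pass. The first call ended without Go 2 (adjusted p = 0.0502), enzastaurin 1 (0.12), enzastaurin 2 (0.118), enzastaurin 3 (0.0743) or control 2 (0.0666), and without scaling (-0.86, adjusted p = 0.0637). The second ended without any 1 enzastaurin array, without control 2 or without control 3 (adjusted p = 0.055 to 0.144), with an offset of 16 (0.0533) and with no filter on dim probes (0.0532). Both kept their sign in all alternatives.

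The second CDKN1A probe, A_24_P89457, was at the limit of detection, with 13.1 and 9 on Go, 31.4, 36.1 and 29.6 on enzastaurin and 31.4, 29.5 and 22.2 on control arrays. It stood above background on 2 enzastaurin arrays and on no other array. Go was at least 1.35-fold lower than enzastaurin (adjusted p = 0.0421). The bound equals the fitted fold, since the probe's own Go signals, though not above background, were higher than that of the dimmest probe above background. This call ended with the slide as a block (adjusted p = 0.0541) and held in 4 of 17 alternatives (highest adjusted p = 0.183). Go over control was called too (adjusted p = 0.0286), but no fold is given because neither group was above background, and 7 of 17 alternatives kept that call, the slide block not among them (adjusted p = 0.136).

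CDKN1B encodes p27, the inhibitor that accumulates in cells resting without serum, and its 2 probes went in opposite directions. Probe A_24_P81841 read 321 and 342 on Go, 349.8, 383 and 474 on enzastaurin and 158, 119 and 161 on control arrays. Both compounds were above control without overlap, by 0.97 (SE 0.143, adjusted p = 0.00759) for Go and 1.20 (SE 0.128, adjusted p = 0.000569) for enzastaurin, and Go over enzastaurin was -0.24 (95% interval -0.56 to 0.09, adjusted p = 0.363). The Go call held in all 19 alternatives, and the enzastaurin call ended with the slide as a block (1.12, adjusted p = 0.0674). The other probe, A_23_P204696, read 65.5 and 53.2 on Go, 46.6, 49.8 and 48.1 on enzastaurin and 76.6, 106 and 88.1 on control arrays. Here both compounds were below control, by -0.35 (adjusted p = 0.0412) for Go and -0.51 (SE 0.0955, adjusted p = 0.00356) for enzastaurin. With the slide as a block neither passed (adjusted p = 0.2 and 0.258). For Go over control, the block is the same fit as leaving out Go 2. The Go call also ended without any 1 enzastaurin array (adjusted p = 0.0702 to 0.0741) or without control 2 (0.117).

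CDKN2B encodes p15, an inhibitor of CDK4 and CDK6 known as a target of transforming growth factor beta. Its probe A_24_P360674 read 161 and 140.4 on Go, 130.2, 140.1 and 144 on enzastaurin and 131, 131 and 122 on control arrays, of which control 2 was not above background. No comparison passed (adjusted p = 0.565 for Go over enzastaurin, 0.163 for Go over control and 0.427 for enzastaurin over control). Signals of the other probe, A_23_P216812, ranged from 1.5 to 22.2 on all arrays and were not above background.

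CCND1 A_23_P202837, CDKN1A A_23_P59210 and CDKN1B A_24_P81841 are each printed 10 times on every array, and the deposited value table follows 1 of the 10 spots, the same spot on all 8 arrays, to within 6 intensity units. For CDKN1B that spot was the dimmest of the 10 on 8 of 8 arrays, while for CCND1 it ranked 6th to 8th from the lowest and for CDKN1A 3rd to 6th. The coefficient of variation over the 10 spots of an array was 19.6 to 31.5% for CCND1, 15.5 to 23.1% for CDKN1A and 21.0 to 37.7% for CDKN1B. Before normalisation, the median CDKN1B spot was 790.0 and 509 on Go, 718, 818 and 737 on enzastaurin and 270.5, 247.5 and 468 on control arrays. When the scanner signals of all spots were averaged and corrected by normexp, CDKN1B rose by 0.61 with Go (adjusted p = 0.019) and by 0.63 with enzastaurin (adjusted p = 0.0039) against control, so both differences were over 1.5 times smaller than in the value table, and both calls held. The same step moved CCND1 little (0.62 for Go over enzastaurin, -0.72 for enzastaurin over control) and gave CDKN1A -0.64 for Go over enzastaurin and 0.42 (adjusted p = 0.00409) for enzastaurin over control.

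**Figure D3:**
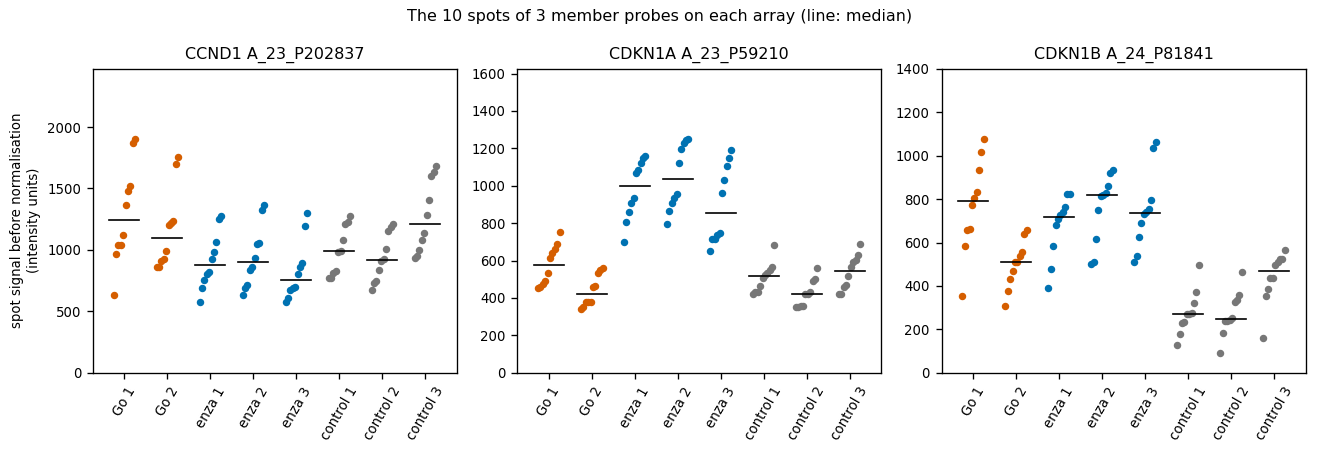
Signal before normalisation (intensity units, linear axis from 0) of the 10 spots of CCND1 A_23_P202837, CDKN1A A_23_P59210 and CDKN1B A_24_P81841 on each array, ordered Go, enzastaurin (enza) and control; lines are medians. The median CDKN1A spot is 856 to 1038 on enzastaurin arrays, 421 to 575 on Go arrays and 423 to 543 on control arrays.

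Among the genes that act with the members, E2F4 and RB1 rose and SKP2 fell with both compounds against control, and few genes were called between the compounds. With 1 probe per gene, 3.99% of 18833 genes were called between Go and enzastaurin (2.36% higher, 1.63% lower), 29.4% between Go and control (13.0% higher, 16.4% lower) and 53.5% between enzastaurin and control (21.0% higher, 32.5% lower). Their median differences were 0.02, -0.08 and -0.10. Of 20 genes of the RB and E2F switch and its kinases, 1 was called between Go and enzastaurin, 6 between Go and control (2 higher, 4 lower) and 8 between enzastaurin and control (2 higher, 6 lower), near or below these shares. Without scaling, the calls in this list were 2 higher with Go and 5 higher with enzastaurin against control, and limma called none lower, nor did any pass lower at an unadjusted p under 0.05. E2F4, an E2F factor that acts mainly with pocket proteins to repress, was 1.43 higher with Go (SE 0.241, adjusted p = 0.0102) and 1.75 higher with enzastaurin (SE 0.216, adjusted p = 0.000799; 1.04 with adjusted p = 0.121 with the slide as a block). RB1, the retinoblastoma gene, was 0.65 (adjusted p = 0.0207) and 0.97 (adjusted p = 0.0011) higher, and neither passed with the slide as a block (adjusted p = 0.0598 and 0.0581). TFDP1, a partner with which E2F factors bind DNA, was called lower with Go (-0.67, adjusted p = 0.0336, and adjusted p = 0.132 with the block). WEE1, a kinase that inhibits CDKs, was called lower with enzastaurin (-0.59, adjusted p = 0.0014; adjusted p = 0.14 with the block). Without the block, CABLES1, a CDK-binding protein, was the one gene of this list called between the compounds. It was 0.58 higher in Go (adjusted p = 0.0395), and 0.44 (adjusted p = 0.0945) with the block. The CABLES1 call was left in 3 of 8 fits without 1 array, and the Go calls of E2F4, RB1 and TFDP1 against control in 8, 4 and 2. Between Go and enzastaurin the block instead called TFDP1 (-0.69) and CCNH (-0.43), both lower in Go, a contrast that then rests on Go 2.

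Most called targets of E2F were lower with both compounds on these scaled signals, a direction that the calls did not keep without scaling. Of 20, 8 were called lower and none higher with Go, and 9 were called lower and 2 higher with enzastaurin, beside 16.4% and 32.5% of all genes called lower. The list's median differences were -0.27 and -0.23. Without scaling, 6 were called higher and none lower by limma with enzastaurin (7 higher and none lower at an unadjusted p under 0.05), and none was called with Go (2 higher at an unadjusted p under 0.05). CDC45, a part of the replicative helicase, was -0.76 (SE 0.175, adjusted p = 0.0209) with Go and -0.79 (SE 0.156, adjusted p = 0.00449) with enzastaurin. CDT1, which loads that helicase, was -0.60 (adjusted p = 0.0364) and -0.81 (adjusted p = 0.00387), and CCNA2, the S-phase cyclin A2, was -0.50 (adjusted p = 0.0203) and -0.81 (adjusted p = 0.000857). PCNA, the sliding clamp of replication, was 0.997 higher with enzastaurin (SE 0.184, adjusted p = 0.0033; 0.19 with adjusted p = 0.494 with the slide as a block). None of the 20 was called by limma between Go and enzastaurin, where 5 had an unadjusted p under 0.05. With the slide as a block limma called none of the 20 in the comparisons with control, with 5 (Go) and 3 (enzastaurin) at an unadjusted p under 0.05. Leaving out 1 array kept the Go calls of CDC45, CDT1 and CCNA2 in 5, 2 and 6 of 8 fits and their enzastaurin calls in 8 of 8. Without scaling, CDC45 stood at -0.43 with Go (adjusted p = 0.248) and -0.23 with enzastaurin (adjusted p = 0.392). The list's medians, with 1 probe per gene, were then 0.01 and 0.26, beside 0.11 and 0.25 over all probes, which were not cut to 1 per gene.

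Of 15 tested genes that set the turnover of G1 cyclins and their inhibitors, 5 were called with Go (2 higher, 3 lower) and 9 with enzastaurin (2 higher, 7 lower) against control, near the 29.4% and 53.5% called among all genes. With the slide as a block limma called none of them, with 5 (Go) and 4 (enzastaurin) at an unadjusted p under 0.05. Without scaling, 3 were called with Go, all higher, and 5 with enzastaurin (4 higher, 1 lower). SKP2, the ubiquitin ligase subunit that marks p27 for destruction, was -0.83 with Go (SE 0.165, adjusted p = 0.0151) and -0.99 with enzastaurin (SE 0.148, adjusted p = 0.00147), and neither passed with the slide as a block (adjusted p = 0.0802 and 0.207). Without scaling, SKP2 stood at -0.57 with Go (adjusted p = 0.116) and -0.55 with enzastaurin (adjusted p = 0.0464). CKS2, a small CDK-binding protein, was 0.56 and 0.50 higher (adjusted p = 0.0253 and 0.0117), and CKS1B, its relative that SKP2 needs, was 0.49 higher with Go (adjusted p = 0.0221). None of these 3 calls passed with the block (adjusted p = 0.148, 0.612 and 0.105). COPS5, a subunit of the COP9 signalosome that also binds p27, was -0.64 with Go and -0.60 with enzastaurin (adjusted p = 0.018 and 0.00539). Neither passed with the block (adjusted p = 0.1 and 0.495) or without scaling (-0.33, adjusted p = 0.376, and -0.04, adjusted p = 0.883). FBXO31, a ubiquitin ligase subunit that targets cyclin D1, was the gene of this list called between the compounds, 0.55 higher in Go (SE 0.105, adjusted p = 0.0325). The call held with the slide as a block (0.62, adjusted p = 0.0412) but in only 3 of 8 fits without 1 array. It ended without scaling (0.34, adjusted p = 0.278). CUL4A, a scaffold of cullin ligases, was called lower with enzastaurin (-0.63, adjusted p = 0.00919) and stood at -0.06 (adjusted p = 0.868) with the slide as a block.

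Among 5 further CDK inhibitors, CDKN2D and CDKN3 were 0.33 and 0.32 higher with Go (adjusted p = 0.0395 and 0.0455) and CDKN3 0.33 higher with enzastaurin (adjusted p = 0.0157), calls left in 2, 1 and 5 of 8 fits without 1 array and ended by the slide as a block (adjusted p = 0.109, 0.183 and 0.372). CDKN2A, the neighbour of CDKN2B that encodes p16, was called lower with enzastaurin (-0.51, adjusted p = 0.0147; -0.81 with adjusted p = 0.109 with the block), and stood at 0.02 without scaling. Of 5 S and M phase cyclins and their kinase, CCNA2 was called lower with both compounds, and CDK1 was 1.0 higher with enzastaurin (SE 0.353, adjusted p = 0.043), a call left in 2 of 8 fits without 1 array and ended by the slide as a block (1.24, adjusted p = 0.317). Of 11 tested related cyclins and CDKs, CCNC, the cyclin of the Mediator kinase module, passed in all comparisons: -0.85 for Go over enzastaurin (SE 0.0956, adjusted p = 0.00615), 0.60 for Go over control (SE 0.0956, adjusted p = 0.009) and 1.45 for enzastaurin over control (SE 0.0855, adjusted p = 0.000275). It held with the slide as a block in each (adjusted p = 0.0168, 0.037 and 0.00902) and in all 8 fits without 1 array. CDK8, the kinase that CCNC activates, was called lower against control with both compounds, -0.69 with Go (adjusted p = 0.0198) and -0.52 with enzastaurin (adjusted p = 0.0152), and neither passed with the block (adjusted p = 0.106 and 0.909).

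**Figure D4:**
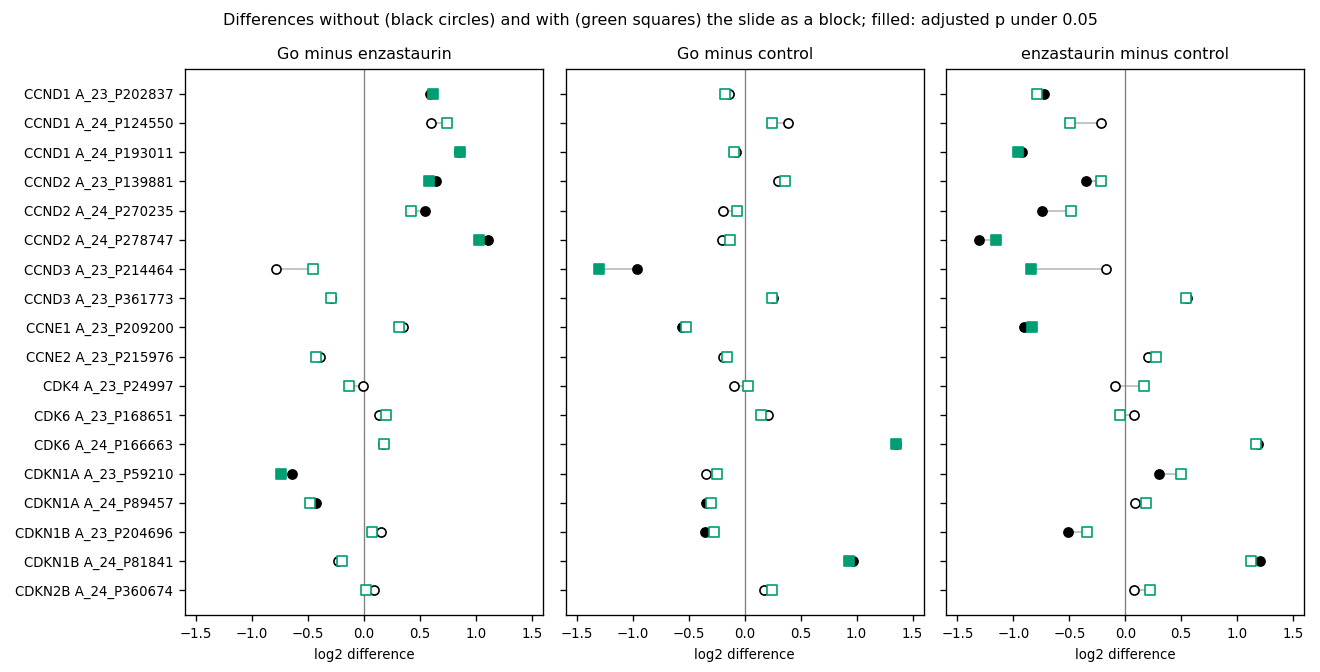
Log2 differences of the tested member probes without (circles) and with (squares) the slide as a block; filled symbols have an adjusted p under 0.05. All 5 member probes called with the block between Go and enzastaurin are among the 7 called without it; between enzastaurin and control 4 are called with it, of which 3 are among the 11 called without it.

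Of the member probes called, 5 of 7 between Go and enzastaurin, 3 of 7 between Go and control and 3 of 11 between enzastaurin and control were called with the slide as a block, and 7, 7 and 11 kept their sign. CCND3 A_23_P214464 gained a call under the block for enzastaurin over control (-0.85, adjusted p = 0.0397), on the difference between a Go array above background and one that was not. With the block, Go against control rests on Go 1 and Go against enzastaurin on Go 2, each the 1 Go array on its slide, assumed to vary like the other groups. For these comparisons the block is the same fit as leaving out Go 2 and Go 1, in that order. The counts of alternatives hold both, so they are not separate checks.

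For each member above background on all 8 arrays, the genes whose log2 signal ran most nearly in parallel over the 8 arrays were taken from 9934 genes. CCND1 was nearest to MITF (Pearson r = 0.989), SHMT2 (0.985) and LRATD1 (0.984), and CCND2 to CSGALNACT1 (0.990), COX5B (0.987) and ORC2 (0.987). Among the genes nearest to CCND3 were SNTB2 (0.988) and PEPD (0.986). CCNE1 had KCNK5 (0.996), HEATR1 (0.994) and CMTM7 (0.994), and CCNE2 had USP32 (0.956), TRIM6 (0.955) and CLEC2D (0.949). CDK4, which was called in no comparison, was nearest to SON (0.968), NKIRAS1 (0.955) and RPL26L1 (0.953). CDK6 was nearest to PSMD4 (0.996), RNF220 (0.995) and CXCL5 (0.994). CDKN1A had VLDLR (0.991) and RPS6KA1 (0.975) among its nearest, and CDKN1B had RGMB (0.992), THAP10 (0.989) and TSPYL1 (0.988). These correlations rest on 8 arrays that share their group structure and slides, and are a description.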

How the data were processed

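RNA of 8 CAL-27 samples was read on 1 single-colour array each. The deposited value table holds background-subtracted intensity, linear, with no scaling between arrays; the program and settings behind it are not given in the sources used here. The authors also deposited scanner tables, which per the file headers hold spot intensity, a signal-to-noise score, the percent of saturated pixels and spot positions (other). Their annotation runs end for end against the spots and was turned: log2 SD between replicate spots was 2.11 to 2.41 as deposited and 0.218 to 0.316 turned, and the Spearman correlation with the value table rose to 0.9904 to 0.9937. The value table's probe IDs need no such step.

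Values were quantile-normalised and tested as log2(signal + 50) with limma 3.58.1 in R 4.3.3, all 3 groups in 1 fit (5 residual degrees of freedom), with Benjamini-Hochberg adjustment over the 24771 probes with a signal-to-noise score over 3 on at least 2 arrays and a threshold of 0.05. This followed the design that was set down; slides were inferred from spot positions. The fit was tested on simulated data. The members and the other lists were chosen with earlier results of these data known. Named by rule were every member probe, up to 4 called genes of each list and comparison by size of difference (a selection of these is printed), and the 3 genes most correlated with each member, of which some are not reported here. Alternatives covered background correction, scaling, offset, filter, probe choice, slide and replicate blocks and leaving out each array. The number of arrays limits the precision.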

Additional observations from a re-analysis of the deposited data

How the results depend on the processing

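Of 999 values of member probes under the alternatives, 882 kept their direction and side of the threshold, 96 lost a call, 20 gained one and 1 reversed: CCND2 A_23_P139881, enzastaurin over control, at 0.0699 without scaling between arrays. That alternative was chosen after seeing the data. Leaving out 1 array gave 50 of the lost calls, no scaling 15 and the slide block 14. In the Go comparisons the slide block repeats a fit without 1 Go array, so some lost calls are counted in both. Probes called between Go and enzastaurin (944) numbered 185 without scaling and 106 to 2423 when 1 array was left out. Those between Go and control (7147) numbered 1338 with the slide block, 3468 without scaling and 958 to 9932 when 1 array was left out. Those between enzastaurin and control (12852) numbered 721 with the slide block and 9380 to 14140 when 1 array was left out. Apart from the inferred slide, arrays of different groups are tied only by a replicate number. Correlations of deviations between arrays of the same number ran from -0.144 to 0.167. With the replicate number as a block, 217, 7583 and 12419 probes were called. The cause of these changes was not tested. CCNE2, CDKN1A A_24_P89457 and CCND3 A_23_P214464 lie near the background, and CDKN2B A_23_P216812 below it, which limits what they can show.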
